A study of Mus musculus with 12 samples.

Results

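The subject here is the mRNA of 7 endoderm transcription factor genes, Gata4, Gata6, Sox17, Foxa2, Sox7, Hhex and Hnf4a, in mouse epiblast-like cells (EpiLCs) and in the primordial germ cell-like cells (PGCLCs) made from them. The 7 were taken by symbol from the 2 deposited matrices and followed by Ensembl ID into 12 count files that hold 21728 genes. All came from C57BL/6 embryonic stem cells of the BVSC line, which carries Blimp1-mVenus and Stella-ECFP, reporters of Prdm1 and Dppa3. There were 4 groups of 3 libraries: EpiLCs without treatment, EpiLCs given 100 nM bisphenol A (BPA), untreated PGCLCs at day 5 and day 5 PGCLCs labelled 100 nM BPA. EpiLCs were grown for 48 h, and BPA medium went on 24 h after seeding and stayed for 24 h. The labels do not say whether BPA was also present during PGCLC culture. For PGCLCs, "with BPA" below therefore names that arm. A gene that "rose" or "fell" there differed between that arm and untreated cells. PGCLCs were sorted for both reporters after aggregates were dissociated, and for EpiLCs the labels mention no sort. The descriptions of untreated EpiLCs name water, and that of untreated replicate 3 carries the replicate number 2, so the title was followed. One reporter line was used, and no label says whether replicates were separate cultures, so p-values describe the spread between these libraries.

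Endoderm arises from the blastocyst as primitive endoderm, which gives the visceral and parietal layers of the yolk sac, and again at gastrulation as definitive endoderm, which gives the gut. GATA4 and GATA6 are zinc finger factors near the top of the primitive endoderm programme, and SOX17 and SOX7 are related HMG box factors that act in extraembryonic endoderm, with SOX17 also needed for definitive endoderm. FOXA2 is a forkhead factor of visceral and definitive endoderm, HHEX a homeobox factor of anterior endoderm, and HNF4A a nuclear receptor that activates plasma protein and lipid transport genes in visceral endoderm and liver. None of the 7 is specific to endoderm: GATA4 and GATA6 also act in heart, SOX7, SOX17 and HHEX in endothelium and blood, and FOXA2 in the node and notochord.

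Counts assigned to genes ranged from 11785338 to 22029195 in EpiLC and from 30375633 to 34309195 in PGCLC libraries. No count file lists a gene with fewer than 10 counts. A gene called unlisted below therefore had at most 9 counts, which is 0.255 to 0.741 counts-per-million (CPM) on the scale used here, depending on the library. Replicate libraries were compared by the chi-square of their counts per degree of freedom, which is near 1 when only counting noise separates them. BPA PGCLC replicates 1 and 2 gave 3.91, whereas replicate 3 gave 50.9 and 49.9 against them and the untreated PGCLC pairs gave 17.9 to 21.4. Untreated EpiLC replicate 3 also stood apart (92.6 and 122 against the others, which gave 7.14). BPA EpiLC pairs gave 3.73 (replicates 1 and 2) to 8.68. BPA PGCLC replicates 1 and 2 differ beyond counting noise and were kept as 2 libraries, with a fit that sums them given where it matters. The labels name the libraries of untreated and BPA PGCLCs by different schemes, and EpiLC libraries differently again, so library batch cannot be told apart from BPA in PGCLCs or from stage.

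In EpiLCs 5 of the 7 genes were unlisted in at least 1 library of each group. Gata6, Sox17 and Hnf4a were unlisted in all 6 EpiLC libraries, and Foxa2 was listed only in BPA replicate 3, at 0.451 CPM. Sox7 stood at 1.03 and 0.595 CPM in untreated replicates 1 and 2 and at 0.786 and 0.631 CPM in BPA replicates 1 and 3, and was unlisted in the other two. Only Gata4 and Hhex were listed in every EpiLC library. Gata4 stood at 2.47, 3.02 and 2.23 CPM in untreated replicates 1, 2 and 3 and at 2.98, 2.96 and 3.20 CPM with BPA. Hhex stood at 4.62, 5.08 and 7.17 CPM untreated and at 4.38, 5.18 and 5.81 CPM with BPA. For both genes the groups overlapped. All CPM values are on 1 scale over the 12 libraries (TMM-scaled library size), and mean ± SD has n = 3 per group.

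**Figure D1:**
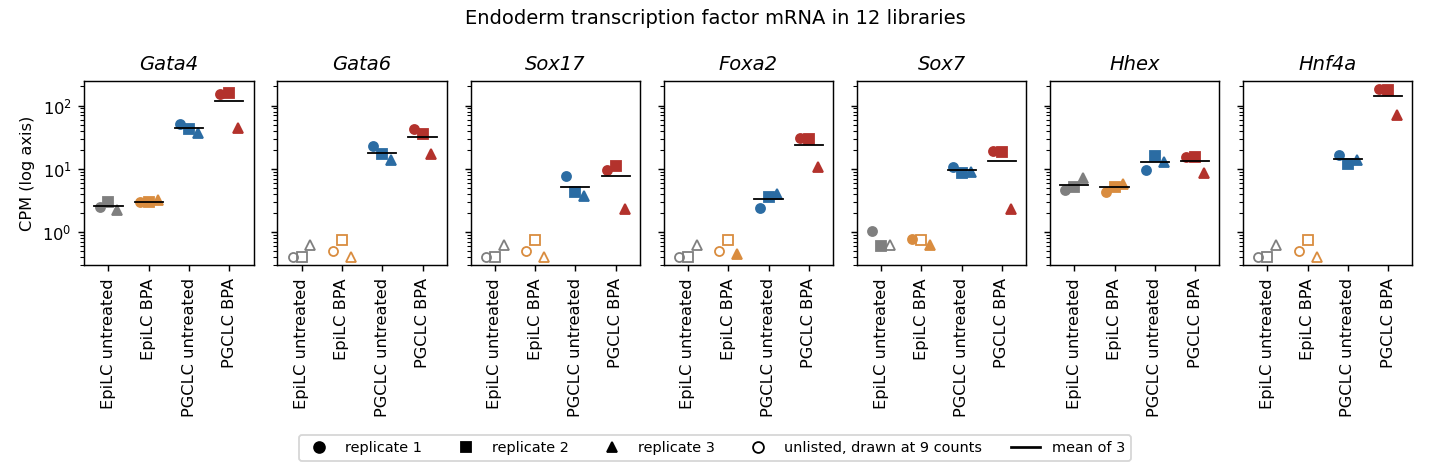
CPM (log axis) of the 7 genes in each of the 12 libraries by group, with replicates as symbols, unlisted values as open symbols at 9 counts, and a bar for the mean of 3 where all libraries list the gene. EpiLC symbols of Gata6, Sox17 and Hnf4a are all open, and all PGCLC symbols are filled.

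No BPA effect was called in EpiLCs. The 3 genes that passed the filter on low counts were Gata4 (log2 change 0.25 ± 0.18 SE, adjusted p = 0.943), Sox7 (-0.18 ± 1.41, adjusted p = 0.983) and Hhex (-0.10 ± 0.20, adjusted p = 0.944), by edgeR's quasi-likelihood test with Benjamini-Hochberg adjustment over all genes. The sign for Sox7 and for Hhex turned when single libraries were left out. Of all 15252 genes tested there, 0 were called (0%), with 118 at an unadjusted p under 0.05, none of them these 3. DESeq2 called 1 gene and limma-trend 0.

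Every one of the 7 was higher in PGCLCs than in EpiLCs, in both arms. Without treatment Gata4 stood at 51.1, 42.9 and 36.2 CPM in the 3 PGCLC libraries, 16.9-fold above its EpiLC mean (adjusted p = 8.76e-06). Hhex, at 9.59, 16.0 and 12.8 CPM, was 2.27-fold above EpiLCs (adjusted p = 0.00271), the smallest stage difference of the 7. For the rest a fold is a lower bound, with unlisted EpiLC values set at 9 counts. Gata6 was at least 37.2-fold, Hnf4a at least 29.5-fold, Sox7 at least 12.6-fold, Sox17 at least 10.8-fold and Foxa2 at least 6.94-fold higher. Their adjusted p ranged from 1.41e-05 (Gata6) to 0.00235 (Sox7). Of the 17608 genes tested, 55.6% were called, 30.4% higher and 25.2% lower, beside 7 of 7 members higher, and the members' choice followed earlier results of these data. In the BPA arm all 7 were again called higher, beside 57.5% of genes called, 32.5% higher and 25% lower, with Gata4 38.7-fold higher, Hhex 2.57-fold and Hnf4a at least 259-fold.

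This stage difference sets sorted day 5 cells against whole EpiLC harvests in bulk RNA, in which fewer cells of a type and less RNA per cell cannot be told apart. Visceral endoderm products summed to 1448 to 2179 CPM in untreated PGCLCs against 192 to 272 CPM in untreated EpiLCs. Of the 23 tested, 16 were called higher and 1 lower. Of 10 parietal endoderm products 8 were called higher and 0 lower, beside 30.4% of all genes higher and 25.2% lower. Markers of other cell types that use these factors were also higher in untreated PGCLCs than in EpiLCs. The summed level of 17 endothelial and blood markers was 252 to 278 CPM there against 48.2 to 58.8 CPM in untreated EpiLCs, with 10 of 15 tested called higher and 1 lower. Without Pecam1, which pluripotent and germ cells also express, the sums were 80.8 to 93.2 against 27.9 to 39.3 CPM. That of 11 cardiac mesoderm markers was 117 to 160 against 1.97 to 3.62 CPM, with 6 of 10 called higher and 0 lower. Most of it was Hand1, at 92.7 ± 17.3 CPM in untreated PGCLCs, followed by Tbx20 at 28.6 ± 4.54 CPM. The 4 tested but not called had means of at most 2.34 CPM there. Germ cell markers summed to 946 to 1092 against 71.5 to 79.5 CPM, with 7 of 7 higher. That sum and count include the reporter genes Prdm1 at 191 ± 11.3 CPM and Dppa3 at 234 ± 24.3 CPM, which the sort selected for. The part of any of these cell types in the factor levels was not tested.

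In PGCLCs the levels of Hnf4a and Foxa2 were higher in the BPA arm, and no library of either gene overlapped between the arms. Hnf4a stood at 16.8, 12.01 and 13.7 CPM in untreated replicates 1, 2 and 3 and at 180, 177 and 71.0 CPM in the BPA arm. The fitted log2 change was 3.35 ± 0.36 (10.2-fold, adjusted p = 0.00180). Foxa2 stood at 2.39, 3.64 and 3.98 CPM untreated and at 31.0, 29.2 and 10.5 CPM in the BPA arm, a log2 change of 2.83 ± 0.42 (7.12-fold, adjusted p = 0.00598). In both genes BPA replicate 3 was the lowest of its arm and still above every untreated library. These 2 of 7 called higher, and 0 lower, compare with 13.9% of 16753 genes called, 8.13% higher and 5.72% lower, and 2 of 7 with non-overlapping groups higher compare with 17.9%. Both calls held in each of the 16 alternatives run, with log2 changes of 3.13 to 3.67 for Hnf4a and 2.34 to 3.19 for Foxa2.

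Hnf4a (ENSMUSG00000017950; mm10 chromosome 2, 163506808 to 163572910, plus strand) is transcribed from alternative promoters far apart in the gene, and Foxa2 (ENSMUSG00000037025; chromosome 2, 148042877 to 148046969, minus strand) lies on the same chromosome. Counts per gene do not tell which start site was used. The windows below, from RefSeq (GRCm38.p6), run from 250 bases before a start site to 50 bases from it, are given 5′ to 3′ on the gene's strand, and are all those matched for the 2 genes called higher in BPA PGCLCs. Capitals mark AGATAA, a core letter string bound by GATA factors.
Hnf4a upstream start, chr2:163506607-163506906, plus strand: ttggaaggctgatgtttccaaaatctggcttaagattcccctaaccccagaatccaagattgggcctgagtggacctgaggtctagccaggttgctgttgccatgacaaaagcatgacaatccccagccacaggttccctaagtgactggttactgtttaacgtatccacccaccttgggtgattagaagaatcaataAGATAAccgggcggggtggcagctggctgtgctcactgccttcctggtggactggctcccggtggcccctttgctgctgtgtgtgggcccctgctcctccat
Hnf4a downstream start, chr2:163546905-163547204, plus strand: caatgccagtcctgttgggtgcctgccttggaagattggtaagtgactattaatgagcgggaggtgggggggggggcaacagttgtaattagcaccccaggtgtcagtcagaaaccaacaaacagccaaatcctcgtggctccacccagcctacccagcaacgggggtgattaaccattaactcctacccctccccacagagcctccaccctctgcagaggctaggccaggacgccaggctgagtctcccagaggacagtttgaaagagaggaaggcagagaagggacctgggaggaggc
Foxa2 outermost start, chr2:148046920-148047219, minus strand: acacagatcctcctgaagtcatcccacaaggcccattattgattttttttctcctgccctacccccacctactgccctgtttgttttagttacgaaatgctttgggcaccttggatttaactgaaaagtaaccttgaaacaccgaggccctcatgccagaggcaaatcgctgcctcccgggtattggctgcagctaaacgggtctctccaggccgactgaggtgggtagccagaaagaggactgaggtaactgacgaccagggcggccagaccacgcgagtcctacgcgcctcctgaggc
Foxa2 middle start, chr2:148045899-148046198, minus strand: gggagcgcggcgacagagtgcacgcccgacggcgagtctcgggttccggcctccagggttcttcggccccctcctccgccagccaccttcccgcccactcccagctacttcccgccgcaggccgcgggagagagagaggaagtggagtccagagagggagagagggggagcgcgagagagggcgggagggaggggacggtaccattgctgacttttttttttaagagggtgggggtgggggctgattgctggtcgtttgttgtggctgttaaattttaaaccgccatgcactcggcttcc
Foxa2 innermost start, chr2:148045415-148045714, minus strand: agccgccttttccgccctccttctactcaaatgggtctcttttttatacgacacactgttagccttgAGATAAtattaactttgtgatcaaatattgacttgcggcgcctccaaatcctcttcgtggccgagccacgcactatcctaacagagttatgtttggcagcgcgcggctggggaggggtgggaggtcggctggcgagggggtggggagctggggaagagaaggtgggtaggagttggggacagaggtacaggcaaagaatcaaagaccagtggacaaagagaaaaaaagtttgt

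RefSeq windows were matched for 3 of the 7 genes, Foxa2, Hhex and Hnf4a, 6 windows in all. The matching of members skipped chromosome 18, which holds Gata6, so no Gata6 window was searched. The upstream Hnf4a window holds AGATAA with its first base at position -52 from the start site, and 1 of 3 Foxa2 windows holds it at -183. Over 32851 windows of the same length, 11.2% hold AGATAA or its reverse complement TTATCT. Searched on both strands in the 6 windows, TGTTTAC (a forkhead string, in 3.65% of all windows), ATTGTT (a SOX string, in 10.7%) and CAAAGTCCA (an HNF4 string, in 0.475%) gave no match. None of these 4 strings overlaps another at the 2 matches. These matches describe letters in a window and not bound sites.

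Gata4 and Gata6 differed between the arms in 2 of 3 BPA libraries and not in the third. Gata4 (ENSMUSG00000021944; chromosome 14, 63198922 to 63271692, minus strand) stood at 152, 158 and 44.2 CPM in BPA PGCLCs against 36.2 to 51.1 CPM untreated. Its log2 change of 1.46 ± 0.42 missed the threshold (adjusted p = 0.0560). The Gata4 call depends on the analysis: it passed in 7 of 16 alternatives, with adjusted p from 0.000279 (without BPA replicate 3, log2 change 1.85) to 0.266 (limma-trend). Gata6 (ENSMUSG00000005836; chromosome 18, 11052064 to 11085635, plus strand) stood at 41.8, 34.9 and 17.1 CPM with BPA and at 22.9, 16.9 and 13.8 CPM untreated, a log2 change of 0.82 ± 0.33 (adjusted p = 0.141). Without BPA replicate 3 it was 1.12 ± 0.21 (adjusted p = 0.0128), and with BPA replicates 1 and 2 summed 0.66 ± 0.34 (adjusted p = 0.338).

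The SOX pair spread most within the BPA arm. Sox7 (ENSMUSG00000063060; chromosome 14, 63943673 to 63950732, plus strand) stood at 10.8, 8.52 and 9.01 CPM untreated and at 19.1, 18.6 and 2.29 CPM in BPA replicates 1, 2 and 3. BPA replicates 1 and 2 thus lay above every untreated library and replicate 3 below every one, and the log2 change was 0.51 ± 0.62 (adjusted p = 0.678). Without BPA replicate 3 it was 1.02 ± 0.15 (adjusted p = 0.00533), a fit that keeps only the 2 BPA libraries nearest each other. With BPA replicates 1 and 2 summed it was 0.20 ± 0.66 (adjusted p = 0.942). Sox17 (ENSMUSG00000025902; chromosome 1, 4490931 to 4497354, minus strand) stood at 7.59, 4.29 and 3.70 CPM untreated and at 9.49, 11.1 and 2.35 CPM with BPA, in the same order. Its log2 change was 0.57 ± 0.54 (adjusted p = 0.572), and 1.01 ± 0.32 without BPA replicate 3, which did not pass either (adjusted p = 0.0760).

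Hhex (ENSMUSG00000024986; chromosome 19, 37434810 to 37440731, plus strand) stood at 9.59, 16.0 and 12.8 CPM untreated and at 15.6, 15.2 and 8.74 CPM with BPA. The groups overlapped, the log2 change was 0.06 ± 0.27 (adjusted p = 0.928), and its sign turned in 4 of 16 alternatives. Hhex was the member with the smallest change in either direction both between stages and between arms.

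**Figure D2:**
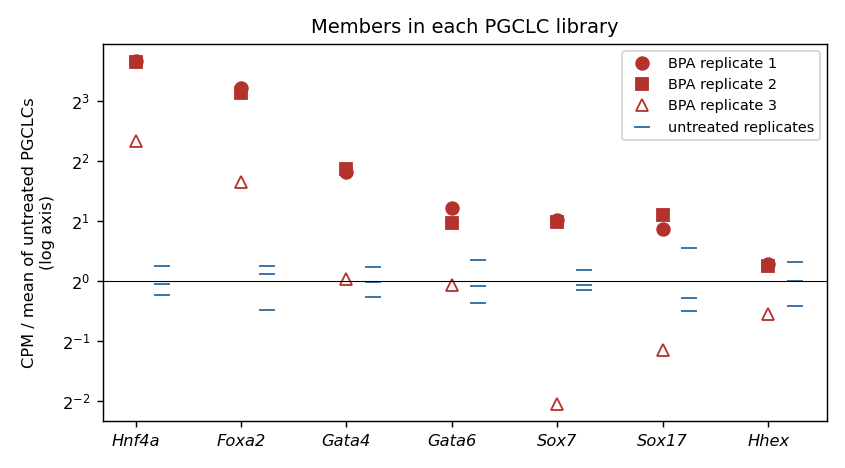
CPM of each gene in the 3 BPA PGCLC libraries divided by the mean of the 3 untreated PGCLC libraries (log axis), with the untreated libraries as blue dashes. BPA replicates 1 and 2 lie close together for each gene, and replicate 3 (open triangles) lies below both for all 7.

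BPA replicates 1 and 2 were near each other for each of the 7 genes, with ratios of 0.835 (Gata6) to 1.17 (Sox17). BPA replicate 3 was lower than their mean for all 7. Its ratio to that mean was 0.121 for Sox7, 0.228 for Sox17, 0.286 for Gata4, 0.350 for Foxa2, 0.399 for Hnf4a, 0.444 for Gata6 and 0.567 for Hhex. The median ratio over all genes tested was 0.999, and 12.8% of them lay more than 1.5-fold below. Against the untreated mean, BPA replicate 3 was 5.02-fold for Hnf4a and 3.15-fold for Foxa2, 1.02-fold for Gata4, 0.954-fold for Gata6 and 0.243-fold for Sox7. The members therefore did not keep 1 ratio to each other within this library: Hnf4a and Foxa2 stayed above the untreated cells while Sox7 and Sox17 were below them.

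**Figure D3:**
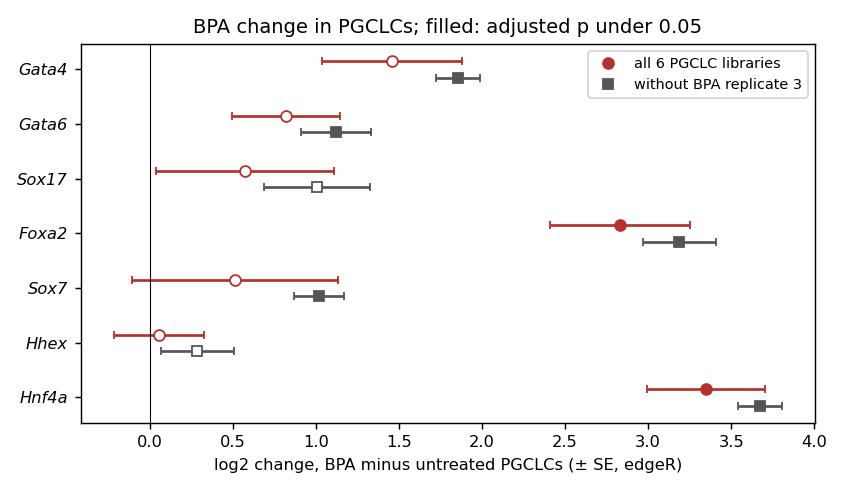
Log2 change from untreated to BPA PGCLCs (± SE, edgeR) for each gene, with all 6 PGCLC libraries (circles) and without BPA replicate 3 (squares). Filled symbols passed an adjusted p of 0.05: 2 genes with all libraries and 5 without BPA replicate 3.

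The number of the 7 called was thus 2 with all libraries and 5 without BPA replicate 3. Calls over all genes also rose without that library, to 3206 of 17417 (18.4%), with 11.1% called higher. With BPA replicates 1 and 2 summed into 1 library, an alternative chosen after seeing the data, it was 2, Hnf4a at 3.16 ± 0.35 (adjusted p = 0.00339) and Foxa2 at 2.63 ± 0.43 (adjusted p = 0.0158). That fit and those without BPA replicate 1 or 2 called 755, 677 and 668 genes, against 2321 with all libraries, and leaving out an untreated library gave 891 to 1243. The median log2 change of the 7 was 0.82, and that of all 16753 genes 0.01.

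Whether the BPA effect differed between PGCLCs and EpiLCs could be asked of few of these genes, since 3 were unlisted in every EpiLC library and Foxa2 in all but 1. For Gata4 the difference of the effects was 1.21 ± 0.58 on the log2 scale (adjusted p = 0.385), and for Hhex 0.16 ± 0.38 (adjusted p = 1.00). Without BPA PGCLC replicate 3 the Gata4 difference was 1.60 ± 0.23 (adjusted p = 0.00330). By edgeR's interaction test 0 of the 7 passed, while 1.32% of all genes were called. It gave an unadjusted p under 0.05 to 0 of the 7 and to 2449 of all 17608 genes. For the 3 unlisted in every EpiLC library the SE was 1331 to 10580, so this test could not decide for them. DESeq2 gave an unadjusted p under 0.05 to 1 of the 7 and to 2606 of all 21682 genes.

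Per kilobase of exon, which allows genes to be compared, Gata4 had the highest level in untreated PGCLCs at 11.1 ± 1.91 CPM per kb. Hnf4a (2.93 ± 0.50), Sox7 (2.86 ± 0.36), Gata6 (2.75 ± 0.71) and Hhex (2.53 ± 0.63) followed with ranges that overlap. Foxa2 (1.41 ± 0.35) and Sox17 (1.09 ± 0.44) were the lowest and overlapped each other. In the BPA arm the order was Gata4 (30.2 ± 16.4), Hnf4a (29.5 ± 12.8), Foxa2 (9.94 ± 4.78), Gata6 (4.80 ± 1.96), Sox7 (4.04 ± 2.90), Hhex (2.61 ± 0.76) and Sox17 (1.60 ± 0.98) CPM per kb. Hnf4a had there come level with Gata4, and within BPA replicate 3 it was the higher (14.7 against 11.3 CPM per kb). Foxa2 moved from the sixth to the third place, although its range still overlapped that of Gata6.

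**Figure D4:**
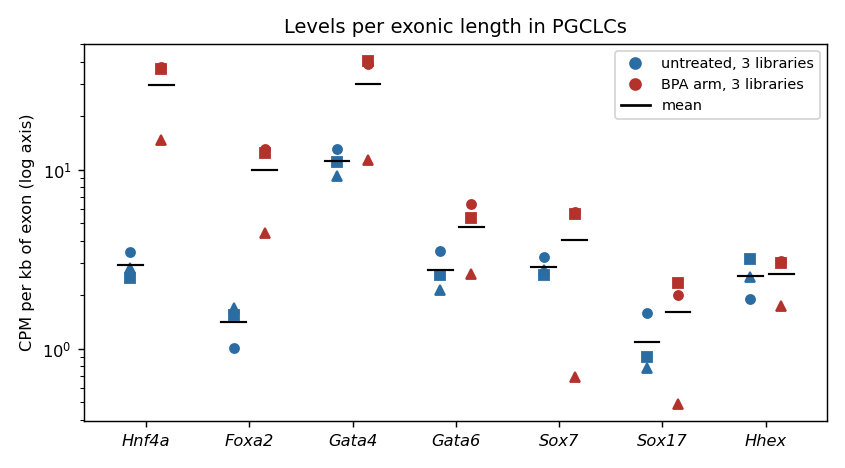
CPM per kilobase of exon (log axis) of the 7 genes in untreated (blue) and BPA (red) PGCLCs, each symbol a library (circle, square and triangle for replicates 1, 2 and 3) and each bar a mean of 3. Hnf4a lies with Gata6, Sox7 and Hhex in untreated cells and with Gata4 in the BPA arm.

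Of 8 genes of the same families, 7 were tested and 1 was called, beside 13.9% of all genes tested. The other, Hnf4g, was unlisted in every library. The called gene was Foxa3, the forkhead relative known from gut and liver. It rose from 0.897 ± 0.218 to 8.51 ± 3.87 CPM (log2 change 3.26 ± 0.44, adjusted p = 0.00419). Foxa1 was at 0.56 ± 0.57, Gata5 at 0.61 ± 0.39, Gata3 at -0.15 ± 0.15, Sox18 at 0.18 ± 0.51 and Gata1 at 0.43 ± 0.83. Gata2, a factor of blood and trophoblast, was at -0.36 ± 0.10 (adjusted p = 0.0538).

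Of 17 other endoderm regulators, 16 were tested, 7 rose and 0 fell (median log2 change 1.69). Of all genes tested, 8.13% were called higher and 5.72% lower, the shares to set beside this list and those below. Creb3l3, a liver and gut transcription factor of lipid metabolism, rose from 2.94 ± 1.13 to 46.3 ± 14.3 CPM. Zfpm1, a cofactor of GATA proteins, rose from 91.0 ± 9.16 to 191 ± 36.4 CPM (log2 change 1.08 ± 0.15, adjusted p = 0.00420), the most abundant of the 7. The forkhead gene Foxq1 rose by 2.71 ± 0.58 and the intestinal and trophoblast factor gene Cdx2 by 1.71 ± 0.42. Lhx1 and Mixl1, factors of anterior visceral endoderm and of the primitive streak, also passed. Lhx1 stood at 3.47 ± 0.48 CPM untreated and 30.1 ± 23.1 CPM with BPA, but at 3.54 CPM in BPA replicate 3. Mixl1 stood at 0.21 ± 0.37 CPM untreated and 10.2 ± 8.30 CPM with BPA, but at 0.594 CPM in BPA replicate 3. Eomes, a factor of the primitive streak and visceral endoderm, did not pass (1.04 ± 0.33, adjusted p = 0.0754). Called regulators numbered 10 without BPA replicate 3, but 3 without BPA replicate 1, without BPA replicate 2, with both summed, or without untreated replicate 1 or 2, and 4 without untreated replicate 3.

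Products of visceral endoderm, among them genes that HNF4A is known to activate, rose in 21 of 23 tested cases, beside 8.13% of all genes. None fell, and the median log2 change was 4.42. Fibrinogen beta, Fgb, went from 4.23 ± 0.96 to 102 ± 16.8 CPM and the calcium-binding protein gene S100g from 4.55 ± 0.07 to 196 ± 69.1 CPM. Apoa4, an apolipoprotein gene, was unlisted in 2 of 3 untreated libraries and stood at 73.7 ± 15.7 CPM with BPA. The 2 not called were the endocytic receptor genes Cubn (0.76 ± 0.36, adjusted p = 0.207) and Lrp2 (0.50 ± 0.34, adjusted p = 0.406). These were already at 587 ± 154 and 555 ± 108 CPM in untreated PGCLCs. The summed level of the list was 2179, 1650 and 1448 CPM untreated and 12810, 13400 and 6398 CPM in the BPA arm, so that replicate 3 was again the lowest of its arm and above the untreated libraries. The count was 23 of 23 without BPA replicate 3, 17 without BPA replicate 1, without BPA replicate 2 or with both summed, and 16 without any one untreated library.

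Parietal endoderm products were divided, beside 8.13% of all genes called higher and 5.72% lower. Of 10, 3 rose, namely the type IV collagen genes Col4a1 (1.22 ± 0.29) and Col4a2 (1.32 ± 0.29) and the parathyroid hormone receptor gene Pth1r (1.47 ± 0.31), and 1 fell, the basement membrane gene Nid1 (-0.42 ± 0.08). Without BPA replicate 3, 5 rose, and leaving out any one of the other 5 libraries left 0 that rose. Nid1 lost its call without BPA replicate 1 or 2. Of 6 tested definitive endoderm and gut markers, the protease gene Tmprss2 (3.87 ± 0.32) and the keratin gene Krt19 (1.13 ± 0.25) rose and Trh, which encodes thyrotropin-releasing hormone, fell (-1.19 ± 0.12). Leaving out any one library other than BPA replicate 3 left 1 of the 2 rises.

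Among 18 tested genes of the Nodal, BMP, FGF and Wnt signals that act on endoderm, 1 rose and 4 fell. Over all genes, 8.13% were called higher and 5.72% lower. The ligand gene Bmp2 rose by 2.60 ± 0.57. The Nodal antagonist genes Lefty1 (-0.74 ± 0.11) and Lefty2 (-0.75 ± 0.08), the Nodal co-receptor gene Tdgf1 (-0.58 ± 0.11) and the ligand gene Bmp4 (-0.71 ± 0.19) fell. Nodal itself was at -0.27 ± 0.12 (adjusted p = 0.163). Lefty1 and Lefty2 kept their calls whichever PGCLC library was left out, Tdgf1 lost its call without any one untreated library, and Bmp4 and Bmp2 lost theirs without any one library other than BPA replicate 3. In that library Bmp2 was at 3.42 CPM against an arm mean of 12.6 ± 8.05 CPM.

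**Figure D5:**
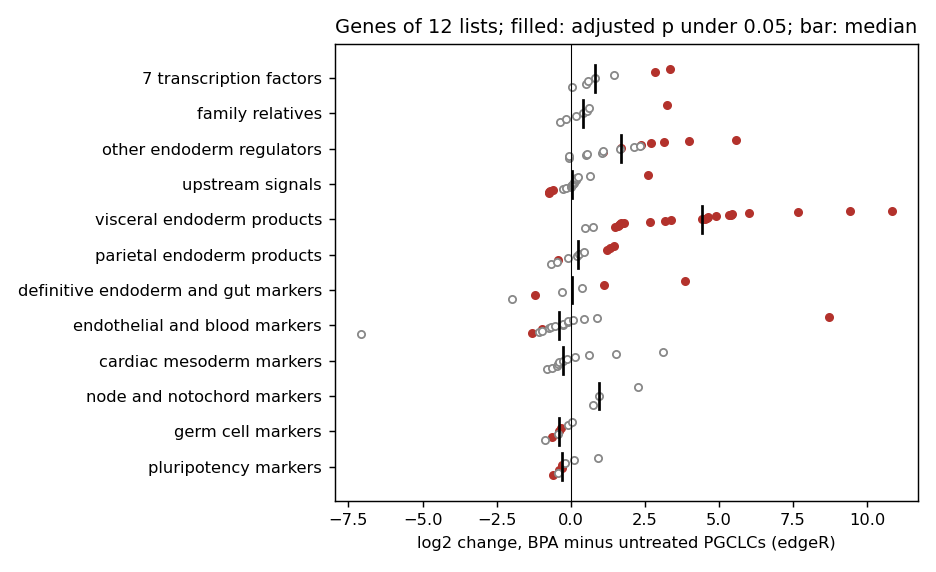
Log2 change from untreated to BPA PGCLCs (edgeR) of each tested gene in 12 lists, filled where adjusted p was under 0.05, with a bar at each list's median. Visceral endoderm products have a median of 4.42, and values past about 5 on either side include genes unlisted in some libraries, whose fitted size is not a bound.

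Markers of the other cell types that use these factors mostly did not pass the test, which called 13.9% of all genes. Of 16 tested endothelial and blood markers, 1 rose, the embryonic globin gene Hbb-bh1 (unlisted in every untreated library, and at 4.21 CPM in BPA replicate 3), and 2 fell, the receptor genes Tek (-1.32 ± 0.28) and Kdr (-0.95 ± 0.26). None of these 3 calls held when any one library other than BPA replicate 3 was left out, and that of Hbb-bh1 was also lost without BPA replicate 3. The markers' sum was 233, 233 and 285 CPM in BPA replicates 1, 2 and 3 against 252 to 278 CPM untreated. Most of it was Pecam1, a gene also active in pluripotent and germ cells, at 179 ± 11.1 CPM untreated and 187 ± 15.2 CPM with BPA. Without Pecam1 the sum was 49.8, 59.5 and 81.8 CPM in BPA replicates 1, 2 and 3 against 80.8 to 93.2 CPM untreated. Of 11 cardiac mesoderm markers 0 passed the edgeR test, with 1 at an unadjusted p under 0.05, Mef2c (-0.81 ± 0.35, adjusted p = 0.173), and Tnnt2 at 3.13 ± 1.69 (adjusted p = 0.279). Over all 16753 genes, 4824 had an unadjusted p under 0.05 by that test. DESeq2 also called 0 of the 11, and leaving out untreated replicate 2 gave 1 call, Tbx5, higher. Of 3 tested node and notochord markers 0 passed, with Foxj1 at 0.97 ± 0.29 (adjusted p = 0.0601), Nog at 2.28 ± 0.86 (adjusted p = 0.120) and Chrd at 0.76 ± 0.32 (adjusted p = 0.159). In that list 2 of 3 passed without BPA replicate 3 and 2 of 4 by DESeq2, all higher, and its sum was 25.5, 27.2 and 12.4 CPM in the BPA arm against 7.71 to 11.2 CPM untreated. The sum, like Foxa2, was lowest in BPA replicate 3 within that arm, although Chrd was at 2.97 CPM there against an arm mean of 2.79 ± 0.16 CPM. The part of node cells in the Foxa2 values was not tested. Noto and Shh were unlisted in all 12 libraries.

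Germ cell markers fell in 3 of 7 cases, Prdm14 (-0.63 ± 0.09), Tfap2c (-0.41 ± 0.08) and Prdm1 (-0.32 ± 0.08), and 0 rose. Their sum was 883, 843 and 905 CPM in the BPA arm against 946 to 1092 CPM untreated. Pluripotency markers fell in 4 of 8 cases, among them Pou5f1 (-0.59 ± 0.06) and Esrrb (-0.39 ± 0.05). Over all genes, 5.72% were called lower and 8.13% higher. Leaving out any one library other than BPA replicate 3 left 1 to 2 germ cell and 2 to 3 pluripotency genes called. The sort required both reporters. Of their genes Prdm1, which is also active in visceral endoderm, fell, while Dppa3 was at 234 ± 24.3 CPM untreated and 218 ± 27.4 CPM with BPA (log2 change -0.09 ± 0.10, adjusted p = 0.670). The part of cells outside the germ line in the sorted fractions was not tested.

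The genes whose pattern was most like each member were sought among 13913 protein-coding genes, as the smallest root mean square difference of centred log2 CPM. Over the 12 libraries the nearest were Lgals2 for Hnf4a (0.398), Ihh for Foxa2 (0.310), Dab2 for Gata4 (0.303), Aqp8 for Gata6 (0.291), Tfec for Sox17 (0.334), Vwf for Sox7 (0.629) and Grasp for Hhex (0.121). Within the 6 PGCLC libraries Hnf4a was nearest to Lgals2 (0.073), Clu (0.099) and Habp2 (0.104). Foxa2 was nearest to Enpp1 (0.155), Mtmr11 (0.222) and Lgals3bp (0.240). Gata4 was nearest to Amot (0.064), Amn (0.139) and Tulp1 (0.140), and Gata6 to Tspan5 (0.125), Plpp6 (0.135) and Fhl2 (0.139). Sox7 had Srgn (0.150), Tfec (0.172) and Fgf10 (0.183), and Sox17 had Rab37 (0.181), Fgf5 (0.200) and Sycp2l (0.277). Srgn, like Sox7, was low in BPA replicate 3, at 0.108 of the mean of replicates 1 and 2, and Fgf5, like Sox17, at 0.200. Hhex had Fam78a (0.050), Dnase2a (0.110) and Ppox (0.112). These are the closest of many genes over few libraries and describe likeness in these libraries alone.

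Overlapping genes could change the counts in either direction, since no label or header used here states whether counting used strand. The antisense gene 1010001N08Rik overlaps an exon of Gata6 and had at most 30 counts in a library, against 434 to 1287 for Gata6. Hnf4aos overlaps Hnf4a outside its exons and was listed in 1 library, with 13 counts, and Gm37587, which overlaps a Sox17 exon, was unlisted in every library.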

How the data were processed

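The deposited count files hold counts, whole reads per Ensembl gene with genes under 10 left out, and the deposited CPM tables equal those counts times 1 constant per library. Per the submitters' processing notes, the tools were STAR, HTSeq, FastQC and bcl2fastq 2.19.1.403, on mm10. Per the labels' protocols, libraries came from a strand-specific mRNA kit. Rows without a gene (no feature 4.42% to 10.7%, ambiguous 4.56% to 6.07% of reads in genes and these rows) were left out. GENCODE M21 gave symbols, coordinates and exon lengths.

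BPA effects were fitted within each stage (6 libraries), and stage differences and the interaction on all 12 with 4 group means. Counts, with unlisted genes as 0, passed filterByExpr, were TMM-scaled and tested with edgeR 4.0.16 quasi-likelihood (R 4.3.3), Benjamini-Hochberg over all genes, threshold 0.05. Every adjusted p of a gene is from this test, save the 0.266 of Gata4, which is from limma-trend. SE is the log2 change over the square root of F. Alternatives were RLE factors, library size alone, 2 other filters, DESeq2 1.42.0, limma 3.58.1 trend on log2 of deposited CPM plus 1, the replicate block, unlisted genes as 9, other sample sets and each library left out. Code was tested on simulated data. Members, lists and the rule for naming (the 7, up to 5 called per list by p or the 2 smallest p, and nearest 3 patterns) were chosen with earlier results of these data known. The other relatives, Lhx1, Mixl1, Eomes, Cubn, Lrp2, Nodal, Chrd, Pecam1, Tbx5 and Dppa3 lie outside that rule and were named after their values were seen. Some members of the list of other endoderm regulators are counted but not reported here by name.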

Additional observations from a re-analysis of the deposited data

How the results depend on the processing

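Hnf4a and Foxa2 in BPA PGCLCs and all 7 genes between the stages, in both arms, kept their direction and their call in every alternative run. In PGCLCs the genes called for BPA numbered 668 to 3206 with 1 library left out, and 755 with BPA replicates 1 and 2 summed, against 2321. The 7 members gave 2 to 5 calls with 1 library left out. With the replicate block they gave 4 (Gata4 1.28, adjusted p = 0.0369, and Gata6 0.76, adjusted p = 0.0401, besides Hnf4a and Foxa2) and 1618 genes in all. Same-numbered PGCLC libraries did not deviate together (correlations 0.015, 0.004 and -0.029; in EpiLCs 0.095, -0.002 and 0.014), so the number is no evidence of pairing. Hhex in PGCLCs ranged from -0.13 to 0.29 with 1 library left out and was -0.059 with BPA replicates 1 and 2 summed. In EpiLCs, DESeq2 called 1 gene, and with 1 library left out Sox7 ranged from -0.73 to 0.64 and Hhex from -0.22 to 0.085. Interaction calls were 232, and 83 to 767 with 1 library left out, 150 with the replicate block, 519 with unlisted genes as 9 and 779 by DESeq2. With unlisted genes as 9, 1 member was called (Hnf4a, 3.21, adjusted p = 0.0261) and Foxa2 turned from -2.44 to 2.65. The sign of -2.44 rests on 1 EpiLC library with 10 counts. With 1 library left out, 0 to 1 members were called, Foxa2 ranged from -3.05 to 2.82, Sox7 from -0.092 to 1.18 and Hhex from -0.0080 to 0.39. Other causes were not tested. Gata4 in PGCLCs passed in 7 of 16 alternatives.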
